A study of Mus musculus with 6 samples.

Results

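The genes described here are 10 imprinted genes of distal mouse chromosome 7, chosen by gene symbol from the *H19*-*Igf2* and *Kcnq1ot1* domains: *H19*, *Igf2*, *Ascl2*, *Cd81*, *Tssc4*, *Kcnq1*, *Kcnq1ot1*, *Cdkn1c*, *Slc22a18* and *Phlda2*. Of these, 8 were listed in both gene count tables of the series and 2, *Kcnq1* and *Slc22a18*, were listed in neither. The tables together list 16279 genes, of which 12471 were tested, all 8 listed imprinted genes among them. Bulk RNA-seq was compared between mouse embryonic stem cells (mESCs, 3 libraries) and cultures enriched for cardiac precursor cells (CPCCs, 3 libraries). All libraries came from male F1 cells of the strain cross C57BL/6 x CAST/EiJ, with a C57BL/6J mother and a CAST/EiJ father, from 3 clones that go back to 3 blastocysts. The mESC lines were set up on feeder cells and moved to feeder-free 2i medium with LIF. CPCCs were grown from the same clones by way of embryoid bodies in medium with ascorbic acid, then in medium with EGF and Fgf2, and are mixed cultures. Libraries were made from polyA+ RNA, and all replicates were handled side by side.

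In genomic imprinting, a gene is expressed mainly from the allele of 1 parent, set by DNA methylation laid down in the germ line. At the *H19*-*Igf2* domain, CTCF binds the unmethylated maternal control region and keeps shared enhancers from *Igf2*, so that *H19*, a long non-coding RNA, is expressed from the maternal allele and *Igf2*, a fetal growth factor, from the paternal allele. At the neighbouring domain, *Kcnq1ot1* is transcribed from the paternal allele, antisense within *Kcnq1*, and represses nearby genes on the same chromosome, among them *Cdkn1c*, *Phlda2*, *Slc22a18* and, mainly in the placenta, *Ascl2*, *Cd81* and *Tssc4*. The counts here sum both alleles, so they give a level and not its parental origin.

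*H19* is also the host of a microRNA, and its mature forms are shown because *H19* RNA rose more than any other gene of the set, as described below. On GRCm38.p6 (RefSeq), miR-675-5p lies at chr7:142577112-142577133 and miR-675-3p at chr7:142577078-142577099, both on the minus strand. Each lies inside an exon in 3 of the 7 annotated *H19* transcripts. The capitals mark the seed, bases 2 to 8. Mature microRNAs have no polyA tail and were not measured in these libraries.
mmu-miR-675-5p: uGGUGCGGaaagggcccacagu
mmu-miR-675-3p: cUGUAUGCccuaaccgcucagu

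The 250 bases upstream of the start were available from RefSeq (GRCm38.p6) for *Igf2* (4 starts), *Ascl2*, *Cd81*, *Tssc4*, *Kcnq1ot1*, *Slc22a18* and *Phlda2*. The windows of the 4 genes below are shown because these genes share 1 region and moved in both directions and by unlike amounts. Capitals mark motifs searched on both strands, which do not overlap each other here. CCAAT, the motif of the CCAAT box, is present in 33.8% of all 32851 promoter windows of this length. GGGCGG, the core of the GC box, is present in 32.7% of them, and the TATA box motif TATAAA in 12.4%. The last of the 4 *Igf2* starts is shown at chr7:142657497-142657746 (minus strand).
Igf2: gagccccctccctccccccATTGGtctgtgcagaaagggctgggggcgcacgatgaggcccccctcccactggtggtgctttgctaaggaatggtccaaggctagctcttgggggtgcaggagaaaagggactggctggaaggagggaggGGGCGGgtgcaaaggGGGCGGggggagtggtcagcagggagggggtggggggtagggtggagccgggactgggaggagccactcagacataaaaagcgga
Ascl2 at chr7:142969265-142969514 (minus strand): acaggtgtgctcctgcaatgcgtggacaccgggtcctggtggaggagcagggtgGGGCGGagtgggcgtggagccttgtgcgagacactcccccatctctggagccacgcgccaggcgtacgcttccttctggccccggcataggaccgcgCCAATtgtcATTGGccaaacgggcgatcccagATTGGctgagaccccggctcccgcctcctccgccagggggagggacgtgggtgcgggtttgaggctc
Cd81 at chr7:143052500-143052749 (plus strand): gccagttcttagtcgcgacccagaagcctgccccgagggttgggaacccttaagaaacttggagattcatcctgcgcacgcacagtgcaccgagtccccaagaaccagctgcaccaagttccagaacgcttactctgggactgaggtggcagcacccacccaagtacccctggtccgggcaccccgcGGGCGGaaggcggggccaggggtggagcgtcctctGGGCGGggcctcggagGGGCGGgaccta
Kcnq1ot1 at chr7:143296548-143296797 (minus strand): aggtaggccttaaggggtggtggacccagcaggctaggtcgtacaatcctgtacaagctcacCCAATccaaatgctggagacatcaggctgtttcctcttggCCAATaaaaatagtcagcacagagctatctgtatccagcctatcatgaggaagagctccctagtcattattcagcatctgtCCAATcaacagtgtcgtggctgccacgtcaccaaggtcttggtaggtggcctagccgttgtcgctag

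The *Kcnq1ot1* window holds 3 CCAAT motifs, all in the printed orientation, and 5 CpG sites, close to the median of 6 CpG sites over all windows. The *Ascl2* window holds 3 CCAAT motifs, 1 GGGCGG motif and 19 CpG sites, a number reached by 19.7% of windows. *Cd81* has 3 GGGCGG motifs and 16 CpG sites, a number reached by 25.4% of windows. The 4 windows upstream of *Igf2* hold 1, 10, 22 and 6 CpG sites in the order of transcription, and the counts do not say which start was used.

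Levels are given as CPM, counts scaled to 1000000 per normalized library. Library names follow the tables: S01 to S03 are mESCs and S04 to S06 are CPCCs. A log2 fold change is given with its standard error (SE). Library totals were 6442639 to 6907330 counts in mESCs and 8468819 to 11436062 in CPCCs, so that 3 counts in 1 library equal 0.298 to 0.463 CPM. Of 10 pluripotency genes, 10 were called lower in CPCCs, and their summed level fell from between 5439 and 5805 CPM in mESCs to between 108 and 300 CPM. The summed level of 10 cardiac precursor markers was 8.10 to 10.7 CPM in mESCs and 191 to 282 CPM in CPCCs, mostly *Fst* and *Tnnt2*. Of the 5 tested, these 2 were called higher, and *Gata4*, *Isl1* and *Pdgfra* were not called. *Mef2c*, *Sox9*, *Hand2* and *Nkx2-5* were listed in CPCCs only, *Nkx2-5* at a mean of 0.836 CPM, while *Tbx5* was not listed for CPCCs. The summed level of 8 mesenchyme and fibroblast markers was far larger in CPCCs, at 12121 to 17088 CPM, against 10.9 to 18.4 CPM in mESCs. The 10 extraembryonic endoderm markers summed to 12.1 to 28.8 CPM in mESCs and 158 to 221 CPM in CPCCs, with *Dab2*, *Gata6* and *Foxa2* called higher, *Cubn* and *Amn* listed in CPCCs only, and *Afp*, *Ttr* and *Apoa1* in neither table. The 6 skeletal muscle markers summed to 0.931 to 1.62 CPM in mESCs and 17.8 to 59.4 CPM in CPCCs, nearly all from *Pax3*, which was listed in CPCCs only, while *Myod1*, *Myf5* and *Pax7* were in neither table. The trophoblast markers *Cdx2*, *Elf5*, *Prl3d1* and *Prl3b1* were also in neither table.

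Between mESCs and CPCCs, 6 of the 8 tested imprinted genes rose, *Ascl2* fell, and *Phlda2* was not called (edgeR's quasi-likelihood test, Benjamini-Hochberg adjusted p under 0.05). The 2 largest rises were in *H19* (199-fold) and *Igf2* (56.0-fold), followed by *Cdkn1c* (14.2-fold), *Cd81* (3.91-fold), *Kcnq1ot1* (2.07-fold) and *Tssc4* (1.68-fold). Of all genes tested, 31.7% were called higher and 29.7% lower in CPCCs. In 7 of the 8 genes the libraries of the cell types did not overlap, which was also true of 69.7% of all genes tested. The median log2 fold change of the 8 genes was 1.51, against 0.03 for all genes tested, whose middle 50% lay between -0.84 and 1.14. In bulk RNA, more cells that express a gene and more RNA per cell cannot be told apart. For single genes, an exact permutation test of 3 libraries against 3 cannot go below a two-sided p of 0.10. Any gene without overlap has that value by construction, as the 7 genes here did, so it adds nothing to the missing overlap.

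**Figure D1:**
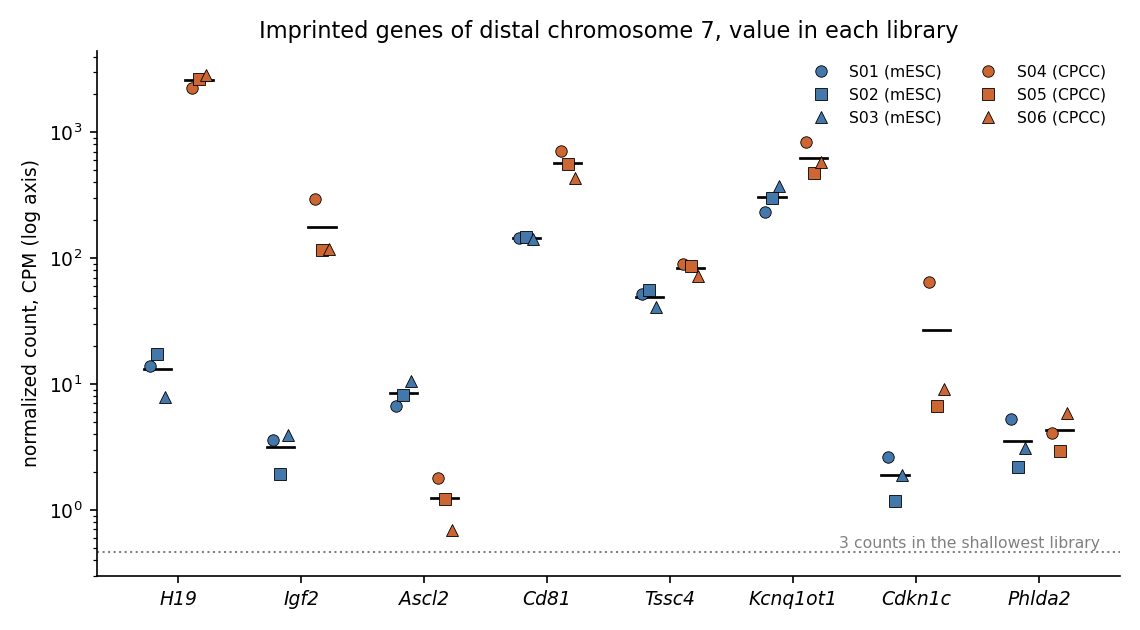
Normalized count in CPM (log axis) of the 8 listed imprinted genes in each of the 6 libraries, with the mean of each cell type as a bar. The CPCC libraries lie above the mESC libraries for 6 genes and below for *Ascl2*, they overlap for *Phlda2*, and S04 stands above S05 and S06 for *Cdkn1c* and *Igf2*.

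*H19* (chromosome 7, 142575530 to 142578147, minus strand) was low in mESCs, at 13.9, 17.4 and 7.90 CPM in the order of the library names. In CPCCs it reached 2242, 2665 and 2874 CPM. The cell types were far apart, and the CPCC libraries were close to each other. The mESC mean was 13.1 ± 4.79 CPM (SD, n = 3) and the CPCC mean 2594 ± 322 CPM (SD, n = 3). On the log2 scale this was a rise by 7.63 (SE 0.32, adjusted p = 1.28e-06, edgeR's quasi-likelihood test). The interval of the fold ran from 119 to 330. Of the 12471 genes tested, 28 had a log2 fold change of this size or larger, *H19* included. The share of a library taken by *H19* was at most 0.00174% in mESCs and 0.197%, 0.259% and 0.296% in CPCCs. Per kilobase of exon, *H19* ranked 24, 16 and 13 among all genes of the CPCC libraries, and between 5606 and 7886 in mESCs.

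*Igf2* (chromosome 7, 142650768 to 142666817, minus strand) was low in mESCs, at 3.55, 1.91 and 3.95 CPM, from 23, 13 and 27 counts. In CPCCs it was at 295.5, 115.7 and 117.9 CPM. Every CPCC library was above every mESC library, and S04 was well above the other CPCC libraries. The log2 fold change was 5.81 (SE 0.49, adjusted p = 1.68e-05, edgeR's quasi-likelihood test), a 56.0-fold rise with an interval from 26.2 to 120. Without S04 the rise was 37.4-fold. A log2 fold change of at least this size was seen in 1.04% of genes tested. The annotation has the microRNA gene *Mir483* and the gene *Gm49394* overlapping *Igf2* on its own strand and *Igf2os* on the other, and whether reads were counted by strand is not given in the sources used here.

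*H19* and *Igf2* both rose, though they are known to be expressed from opposite parental alleles. The number of *H19* counts per *Igf2* count was 3.91, 9.08 and 2.00 in the mESC libraries and 7.59 (S04), 23.0 (S05) and 24.4 (S06) in the CPCC libraries. The ratio in S04 lay within the range of the mESC libraries. The mean log2 ratio was 2.05 ± 1.09 in mESCs (SD, n = 3) and 4.02 ± 0.95 in CPCCs (SD, n = 3). The difference of 1.97 did not pass an exact permutation test (two-sided p = 0.20, smallest possible 0.10). Without S04 the difference was 2.52, also with an exact permutation p of 0.20, which was then the smallest p the design allowed.

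*Kcnq1ot1* (chromosome 7, 143213111 to 143296548, minus strand), the silencing RNA of its domain, was present in both cell types. In mESCs its level was 234, 299 and 377 CPM, and in CPCCs 839, 473 and 576 CPM. The groups did not overlap, with S03 and S05 closest to each other. The log2 fold change was 1.05 (SE 0.25, adjusted p = 0.00556, edgeR's quasi-likelihood test), or 2.07-fold with an interval from 1.40 to 3.07. Of all genes tested, 26.5% rose by this amount or more. *Kcnq1*, the potassium channel gene on the other strand around it, was listed in neither table, in which every listed gene has at least 10 counts over the 3 libraries of a cell type, or 0.497 CPM in mESCs and 0.370 CPM in CPCCs. Because the strand used in counting is unknown, reads of the 2 genes cannot be told apart where they overlap.

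*Cdkn1c* (chromosome 7, 143458339 to 143461051, minus strand) encodes p57, an inhibitor of cyclin-dependent kinases, and is maternally expressed. It was at 2.63, 1.18 and 1.90 CPM in mESCs and at 65.1, 6.67 and 9.05 CPM in CPCCs. Every CPCC library was above the mESC libraries, but most of the mean in CPCCs came from S04. The log2 fold change was 3.82 (SE 0.91, adjusted p = 0.00553, edgeR's quasi-likelihood test), with an interval of the fold from 3.41 to 58.7. Without S04 it was 2.06 (adjusted p = 0.00444, same test), so the direction and the call stayed. The rise was then 4.16-fold, against 14.2-fold with all libraries. The annotated gene *Gm44732* lies antisense to *Cdkn1c* and was not listed in either table.

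*Phlda2*, a maternally expressed gene that restrains growth of the placenta, lies next to *Slc22a18* at the far end of the set (chromosome 7, 143501548 to 143502525, minus strand). It was at 5.25, 2.21 and 3.07 CPM in mESCs and at 4.08, 2.91 and 5.84 CPM in CPCCs, and the groups overlapped. The log2 fold change was 0.29 with an interval from -0.86 to 1.44 (adjusted p = 0.644, edgeR's quasi-likelihood test), so that changes from 1.82-fold lower to 2.71-fold higher lie within it. *Slc22a18*, an organic cation transporter gene, was in neither table. *Cdkn1c*, which rose, and *Phlda2* lie on either side of it.

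*Ascl2* (chromosome 7, 142966822 to 142969265, minus strand), a bHLH factor needed for the trophoblast, was the 1 gene of the set that fell. It was at 6.64, 8.24 and 10.5 CPM in mESCs and at 1.79, 1.21 and 0.688 CPM in CPCCs, from 43, 56 and 72 counts against 18, 10 and 6. The groups did not overlap, and the highest CPCC library was well below the lowest mESC library. The log2 fold change was -2.76 (SE 0.49, adjusted p = 0.0012, edgeR's quasi-likelihood test), a level 6.77-fold lower with an interval from 3.12 to 14.7. A fall of this size or larger was seen in 3.52% of genes tested. The summed level of the trophoblast markers was 76.6 to 88.5 CPM in mESCs and 37.1 to 43.9 CPM in CPCCs. This fall came mostly from *Tfap2c* (67.0 to 3.97 CPM), which was called lower, as was *Eomes*. The other listed markers went the other way. *Krt7* was called higher (3.59 to 29.8 CPM), and *Hand1*, *Plac1* and *Tpbpa* were listed in CPCCs only, at means of 1.50, 1.76 and 0.918 CPM. The part of these markers in the result was not tested.

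*Cd81* (chromosome 7, 143052750 to 143067931, plus strand), a widely expressed tetraspanin of the cell surface, had the tightest mESC values of the set, at 145.8, 147.5 and 140.8 CPM. In CPCCs it was at 708, 559 and 430 CPM, with no overlap. The log2 fold change was 1.97 (SE 0.20, adjusted p = 4.95e-05, edgeR's quasi-likelihood test), or 3.91-fold with an interval from 2.86 to 5.35, and 14.8% of genes tested rose as much or more. *Tssc4* (chromosome 7, 143069368 to 143071088, plus strand), whose product takes part in spliceosome assembly, starts just downstream of *Cd81*. It was at 51.6, 55.6 and 41.0 CPM in mESCs and at 90.6, 86.6 and 71.7 CPM in CPCCs. The groups did not overlap, but the rise was the smallest of the 6, with a log2 fold change of 0.75 (SE 0.19, adjusted p = 0.00766, same test). *R74862*, on the opposite strand across the start of *Cd81*, also rose (log2 fold change 1.50, SE 0.32, adjusted p = 0.00335, same test), and the annotation places *Trpm5* opposite *Tssc4*, so counts of these pairs are uncertain without strand.

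**Figure D2:**
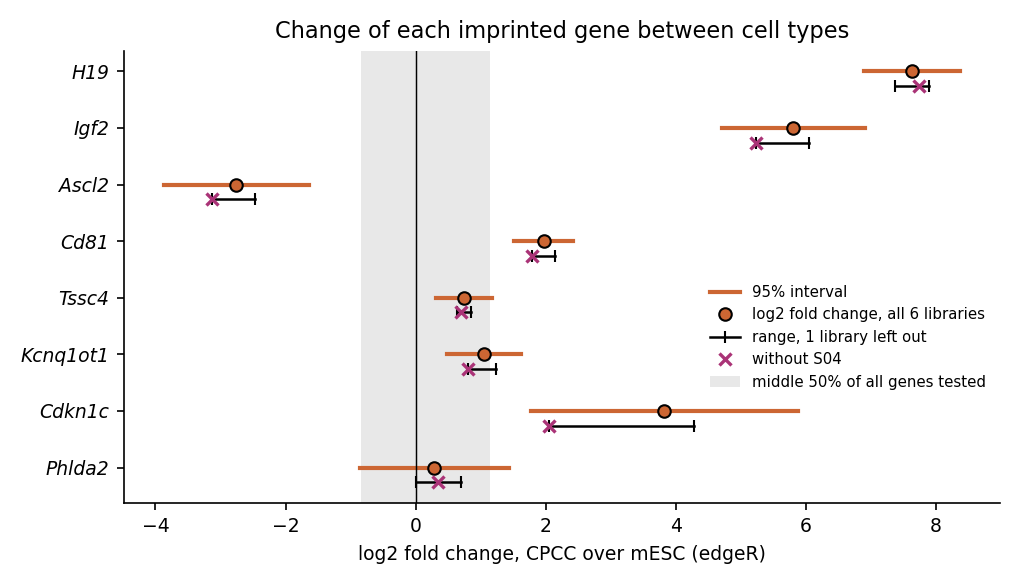
Log2 fold change of each imprinted gene between CPCCs and mESCs with its 95% interval, and below it the range of the estimate when 1 library was left out (cross, without S04); the grey band holds the middle 50% of genes tested. The intervals of *H19*, *Igf2*, *Cdkn1c*, *Cd81* and *Ascl2* lie clear of the band, the interval of *Phlda2* spans 0, and the estimate of *Cdkn1c* moved from 3.82 to 2.06 without S04.

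Levels can be compared between genes only per kilobase of exon, for which the summed exon length of the GENCODE annotation was used. In mESCs the order of mean CPM per kilobase was *Cd81* (50.3), *Tssc4* (26.8), *H19* (5.31), *Ascl2* (5.22), *Kcnq1ot1* (3.26), *Phlda2* (3.13), *Cdkn1c* (0.933) and *Igf2* (0.548). The libraries of *H19*, *Ascl2*, *Kcnq1ot1* and *Phlda2* formed a run in which neighbours overlapped, apart from a narrow gap between *Ascl2* and *Kcnq1ot1*, and those of *Cdkn1c* and *Igf2* overlapped too. In CPCCs the order was *H19* (1054), *Cd81* (196), *Tssc4* (45.0), *Igf2* (30.8), *Cdkn1c* (13.2), *Kcnq1ot1* (6.76), *Phlda2* (3.82) and *Ascl2* (0.758). *H19* and *Cd81* stood apart from all others there, as did *Ascl2* at the low end, whereas *Tssc4*, *Igf2*, *Cdkn1c*, *Kcnq1ot1* and *Phlda2* each overlapped the next. The place of *Cdkn1c* above *Kcnq1ot1* came from S04 (31.9 against 9.02), since *Cdkn1c* was lower in S05 (3.27 against 5.08) and in S06 (4.44 against 6.18). *Kcnq1ot1*, with 93.1 kb of exon, is low on this scale although its CPM was the highest of the set in mESCs.

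The imprinted genes also differed in how much the CPCC libraries varied. S04 was 8.14-fold above the mean of S05 and S06 for *Cdkn1c* (on log2 CPM), a difference reached by 7 of 12471 genes tested, *Cdkn1c* included. For *Igf2* it was 2.53-fold higher, a difference reached by 2.22% of genes. For *Ascl2* it was 1.74-fold higher (9.63%), for *Kcnq1ot1* 1.61-fold (12.7%), for *Cd81* 1.44-fold (18.2%) and for *Tssc4* 1.15-fold (35.1%). *H19* went the other way, at 0.810 of the mean of the other libraries, and *Phlda2* was level at 0.986. S04 also held the lowest summed pluripotency markers of the CPCC libraries, 108 CPM against 220 and 300 CPM, and the highest *Tnnt2*, 103 CPM against 24.0 and 28.3 CPM. Its summed blood and endothelium markers were the highest of the CPCC libraries, 34.3 CPM against 12.9 and 12.8 CPM, though below the 85.1 to 94.3 CPM of mESCs. That excess was mostly *Ptprc* and *Cdh5*, whereas *Kdr* was highest in S05 and *Pecam1* in S06. The part of these markers in the differences of S04 was not tested. Without S04 all 7 calls stayed, with log2 fold changes of 7.74 for *H19*, 5.23 for *Igf2*, 0.80 for *Kcnq1ot1*, -3.13 for *Ascl2*, 1.79 for *Cd81* and 0.69 for *Tssc4*.

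**Figure D3:**
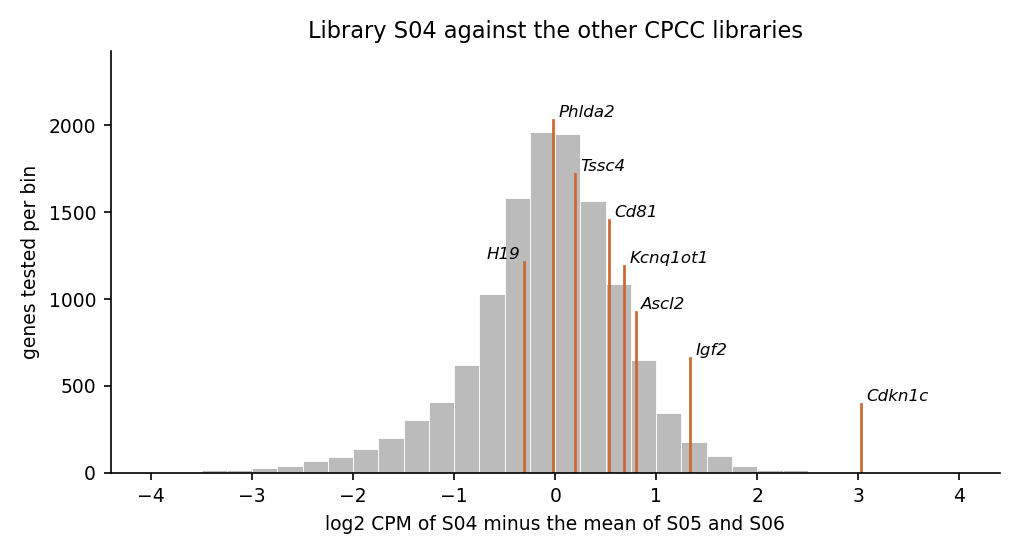
Histogram of all 12471 genes tested by the log2 CPM of S04 minus the mean of S05 and S06, with each imprinted gene marked by a line (line heights carry no value). *Cdkn1c* lies at 3.03 in the far right tail and *Igf2* at 1.34, while *H19* lies left of 0 at -0.30.

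Along the chromosome, the listed imprinted genes span 927 kb and are interrupted by 3 other listed genes, *Th*, *Tspan32* and *R74862*. *Tspan32*, a tetraspanin gene between *Ascl2* and *Cd81*, was found in the mESC table alone, with 11.9 ± 2.08 CPM (SD, n = 3), and so was at least 35.4-fold lower in CPCCs against a floor of 3 counts per library. *Ascl2*, which fell, and *Tspan32* thus lay side by side between genes that rose. In the 7 listed neighbours before *H19*, 3 were tested and 1 was called, *Ctsd*, the lysosomal protease cathepsin D, which was 8.62-fold higher (log2 fold change 3.11, SE 0.31, adjusted p = 4.68e-05, edgeR's quasi-likelihood test). Of the other neighbours there, *Lsp1*, *Dusp8* and *Ifitm10* were listed in CPCCs only and were at least 117-fold, 46.6-fold and 24.0-fold higher. These genes and *Tspan32* passed the test with missing genes set to 0 or to 3 counts. Past *Phlda2*, 17 of 21 listed neighbours were tested, and 7 were called higher and 4 lower. The largest of these differences were in *Osbpl5*, a lipid transfer protein gene (log2 fold change 7.35, SE 0.38), *Fgf15* (6.95, SE 1.25) and *Fgf4*, a growth factor of pluripotent cells (-4.72, SE 0.63), all past the same test. *Mrgpre*, listed in CPCCs only, was at least 19.8-fold higher, and *Fgf3*, listed in mESCs only, was at least 10.1-fold lower in CPCCs, and both passed the test with missing genes set in the same way. *Shank2*, listed in CPCCs only, and *Mrgprd*, listed in mESCs only, had means of 1.14 and 1.65 CPM and did not pass its filter. Over all 31 listed neighbours, 21 were tested, 9 were called higher and 4 lower, with a median log2 fold change of 0.02, near that of all genes. Of the 4 called lower, *Nap1l4* and *Cars*, just past *Phlda2*, both lost their calls without S02 (adjusted p = 0.101 and 0.0752, edgeR's quasi-likelihood test) and without S05 (0.0948 and 0.0536), which left 2. *Nap1l4* also lost its call without S01 or S04, and *Dhcr7* without S03, which left 3 each time. In a list of neighbours drawn up by name, 10 of 19 were tested and 3 were called higher (*Osbpl5*, *Ctsd* and *Tnfrsf23*) and 3 lower.

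**Figure D4:**
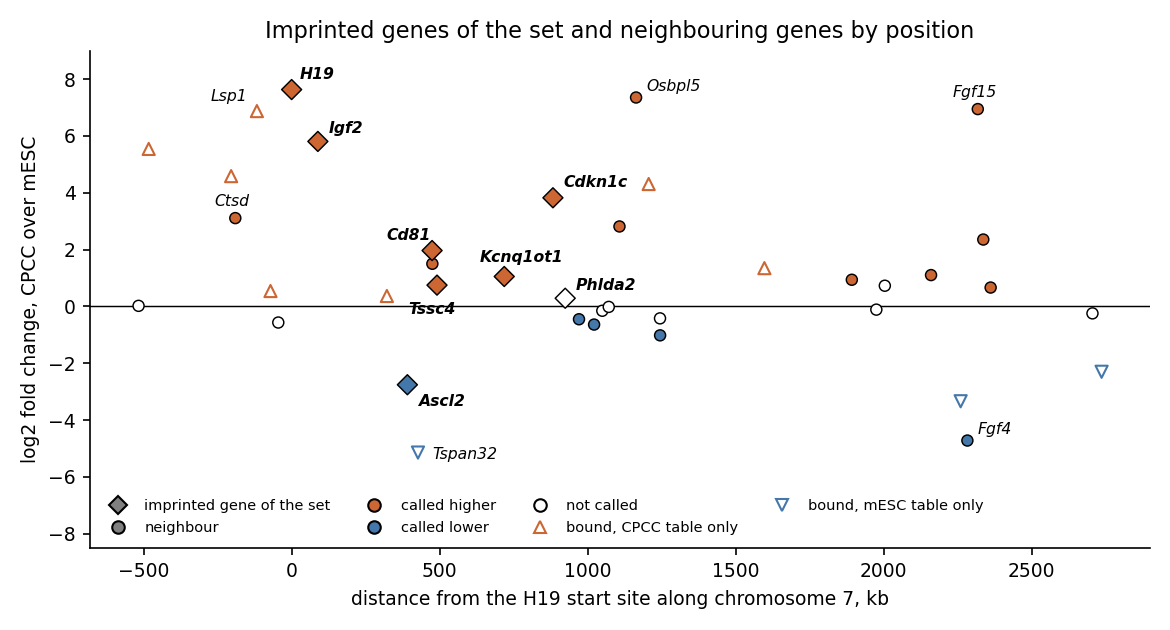
Log2 fold change between CPCCs and mESCs against distance in kb from the *H19* start for the imprinted genes (diamonds) and all other listed genes of the region (circles); open triangles are bounds for genes listed in 1 cell type only. *Ascl2* and the bound for *Tspan32* lie below 0 between genes above 0, and genes past *Phlda2* lie on both sides.

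In a list of 23 genes linked to imprinting control and maintenance, 18 were called lower and 3 higher in CPCCs, with a median log2 fold change of -1.30. Not all of them set or keep imprints. The list holds general subunits of cohesin and Polycomb, and *Tet1*, *Tet2* (both called lower) and *Tet3* (called higher), which act against DNA methylation. The largest differences were in *Dppa3*, which protects maternal methylation in the zygote (log2 fold change -4.91, SE 0.39), *Tet3* (2.82, SE 0.38) and *Tet1* (-2.62, SE 0.37), both methylcytosine oxidases, all past edgeR's test. *Ctcf*, singled out for its role at *H19* after its values were seen, fell from 249 ± 32.8 to 108 ± 30.4 CPM (SD, n = 3 each), and *Zfp57*, which keeps methylation at control regions and was singled out the same way, fell from 214 ± 46.8 to 54.5 ± 14.4 CPM (SD, n = 3 each). The 10 pluripotency markers fell too, and their part in these differences was not tested.

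In the list of IGF2 signalling and IGF2 RNA binding, 12 of 14 genes were tested, 7 were called higher and 3 lower, with a median log2 fold change of 1.74. Higher in CPCCs were the binding proteins *Igfbp5* (log2 fold change 9.07, SE 0.64) and *Igfbp3* (3.39, SE 0.36) and the receptor substrate *Irs1* (7.39, SE 0.38). *Igf1*, the related ligand, was found in the CPCC table alone, with 177.8 ± 72.5 CPM (SD, n = 3), which is at least 397-fold above the mESC floor. *Igf2r*, the maternally expressed receptor that clears IGF2 and was singled out for that role after its values were seen, was at 54.1 ± 7.94 and 55.4 ± 22.8 CPM (SD, n = 3 each) and was not called (log2 fold change 0.04, SE 0.28, adjusted p = 0.917). *Igf2bp1*, *Igf2bp2* and *Igf2bp3*, whose products bind *Igf2* mRNA, were the 3 genes called lower.

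Imprinted genes of other regions that are often coexpressed with *H19* and *Igf2* formed a list of 12, of which 10 were tested, 8 were called higher and 1 lower, with a median log2 fold change of 2.57. The rises were largest in *Sgce* (log2 fold change 4.80, SE 0.22), *Ndn* (4.12, SE 0.18) and *Peg3* (3.88, SE 0.22), all paternally expressed. *Dcn*, a proteoglycan gene, was listed in CPCCs only and was at least 105-fold higher, and the 1 gene that fell was *Grb10*, a growth-restraining adaptor (-1.62, SE 0.27). *Rasgrf1* was in neither table. The summed mesenchyme and fibroblast markers moved with this list and with *H19* and *Igf2*, and their part in these differences was not tested.

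In a list of relatives of the imprinted genes, 10 of 22 were tested, 5 were called higher and 2 lower, with a median log2 fold change of 1.17. The list also holds *Igsf8*, *Ptgfrn*, *Kcne1*, *Kcne2* and *Kcne3*, which are not of the same protein families. The 2 genes called lower were *Cd9* and *Ptgfrn*. The rises were largest in *Phlda1* (log2 fold change 5.13, SE 0.30) and *Phlda3* (2.80, SE 0.31), relatives of *Phlda2*, and in *Cdkn1a* (2.67, SE 0.25), which encodes p21, the relative of p57. The difference between the family members in their change was not tested. *Cd37* was listed in mESCs only and was at least 25.6-fold lower in CPCCs, while *Kcnq5* was listed in CPCCs only and was at least 19.8-fold higher, and both passed the test with missing genes set to 0 or to 3 counts. *Cd82*, *Kcnq3* and *Kcne1* were also listed in CPCCs only, at means of 1.77, 1.53 and 1.12 CPM, too low to pass the filter of that test.

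**Figure D5:**
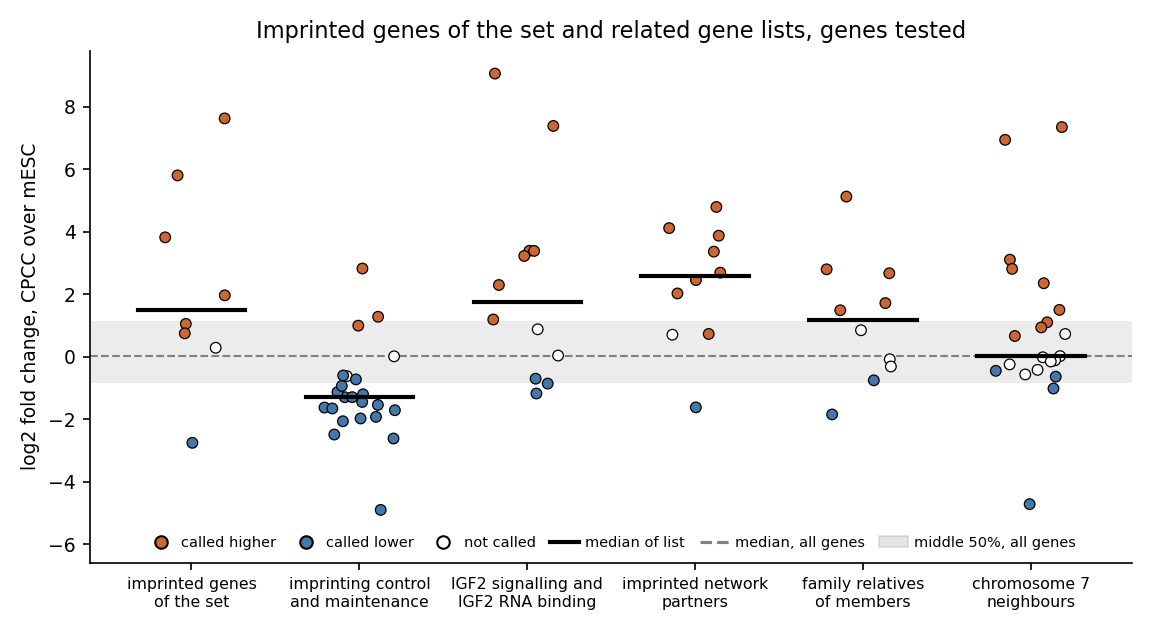
Log2 fold change of each gene tested in the set of imprinted genes and in 5 related lists, with the median of each list as a bar; the dashed line and grey band give the median and middle 50% of all genes tested. The medians run from -1.30 for imprinting control to 2.57 for imprinted network partners, and that of the neighbours, 0.02, lies on the line for all genes.

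The genes whose log2 CPM profile over the 6 libraries was nearest to that of *H19* (Euclidean distance after centring) were *Myl9*, *Bmp1*, *Mmp2*, *Fbn2* and *Parm1*. *Myl9* encodes a myosin light chain of contractile cells, and *Bmp1*, *Mmp2* and *Fbn2* encode a procollagen protease, a matrix protease and a fibrillin. Nearest to *Igf2* were *Fbln2*, *Sema3d*, *Itm2a*, *Camk2d* and *Cyr61*, with distances from 0.618 to 0.799, against 1.00 to 1.17 for the genes nearest to *H19*. *Igf2* ranked 143 among genes by likeness to *H19*, and *H19* ranked 631 by likeness to *Igf2*. By Pearson's correlation in place of distance, 0 of the 5 genes named for *H19* and 1 of the 5 for *Igf2* (*Itm2a*) were again among the nearest 5. These rankings describe 6 libraries that fall into the 2 cell types.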

How the data were processed

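The authors deposited estimated counts per gene in 1 table for each cell type, not normalized and not split by allele, and 17.9% to 21.5% of each library's values were not whole numbers. The submitters' processing notes name STAR 2.7 and mm10. The paper names Partek Flow, with STAR 2.7, for the gene counts of its single-cell libraries. For the bulk libraries, the counter and the use of strand are not given in the sources used here. The lowest sum over the 3 libraries of a cell type was 10 counts for any listed gene. The columns carry no replicate numbers, so each library was assigned to its cell type by the table and the labels and to no clone. The labels call the samples replicates, and the methods trace them to 3 clones, so p-values measure the spread between clones and their handling.

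Counts were rounded, and genes in both tables that passed filterByExpr (12471 of 13001) were compared over all 6 libraries by edgeR's quasi-likelihood test (edgeR 4.0.16, R 4.3.3) with TMM scaling, p-values being adjusted by Benjamini-Hochberg over all genes tested, at an adjusted p under 0.05. The standard error is that of the log2 fold change, and intervals are at 95%. CPM uses the TMM-scaled library size, and profiles used log2 CPM with a prior count of 2. For a gene in 1 table, the bound on the fold uses 3 counts per library. Bounds and floors cover counting error only. Exact permutation tests were two-sided (SciPy 1.17.1, Python 3.11.15). Alternatives were DESeq2 1.42.0 and its own scaling, upper-quartile scaling, library totals, no filter, at least 10 counts in every library, genes of either table with missing genes at 0 or 3 counts, unrounded counts, and leaving out each library. The code was tested on simulated data.

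The imprinted genes and the lists were chosen with earlier results of these data known, so the lists are described by counts and medians, with no set test. Named are all the imprinted genes, the 3 genes of each list past the threshold with the largest log2 fold change and any listed for 1 cell type with at least 1 CPM, and the 5 genes most like *H19* and *Igf2*. A gene that this rule would name is not reported here. Positions are those of the tables on GRCm38, overlaps and exon lengths come from GENCODE M21, and sequences come from RefSeq. Marker sums are per 1000000 counts of a library's total. Allele-specific and single-cell data were not analysed here.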

Additional observations from a re-analysis of the deposited data

How the results depend on the processing

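All 8 imprinted genes were refitted under 8 other settings and with each of the 6 libraries left out. In every fit that could be made, the 7 called genes kept their direction and stayed past the threshold, with adjusted p of at most 0.0312 (*Kcnq1ot1*), and *Phlda2* was never called, with adjusted p between 0.341 and 0.994. With at least 10 counts in every library, *Ascl2* and *Cdkn1c* were filtered out, which left 0 genes of the set called lower and 5 higher. The largest move was that of *Cdkn1c*, whose log2 fold change lay between 2.06 (without S04) and 4.29 (without S05), and it lay between 3.75 and 3.86 under the settings that kept all libraries. In the list of relatives, the number called lower was 1 and not 2 under upper-quartile scaling, library totals without TMM and at least 10 counts in every library. It was between 1 and 2 with a library left out, and 3 with missing genes set to 0 or to 3 counts. Among neighbours listed by name, 5 and not 3 were called higher, and 4 and not 3 lower, when missing genes were set to 0 or to 3 counts. Between 1 and 3 of these neighbours were called lower with a library left out. For neighbours by position the number called lower was between 2 and 4 with a library left out. With missing genes set to 0 or to 3 counts, 13 were called higher and 6 lower. *Nap1l4* was also not called under upper-quartile scaling, library totals without TMM or at least 10 counts in every library. The cause of these moves was not tested, apart from the filter and the added genes, which change what is tested by construction. No result reversed. The difference in the log2 ratio of *H19* to *Igf2* lay between 1.44 and 2.53 with a library left out, and it was the same per kilobase. No paired analysis was possible because the columns carry none of the replicate numbers of the labels. Depth limits *Ascl2* in CPCCs and *Igf2* and *Cdkn1c* in mESCs, which rest on 6 to 27 counts a library.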

Other observations

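*Slc38a4*, an imprinted amino acid transporter gene of another chromosome, shared with *Cdkn1c* and *Igf2* a high value in S04. It was at 74.6, 76.6 and 111 CPM in mESCs and at 255, 90.7 and 82.4 CPM in CPCCs, so that S05 and S06 lay within or near the mESC range and the gene was not called (adjusted p = 0.164, edgeR's quasi-likelihood test). *Plagl1*, an imprinted zinc finger gene known to activate several of these genes, had the opposite order, at 1056, 1486 and 2505 CPM in S04, S05 and S06 against 966 to 1069 CPM in mESCs. *Gata6*, a regulator of endoderm and heart development, was at 40.1, 7.52 and 7.33 CPM in S04, S05 and S06. Among the other listed extraembryonic endoderm markers, *Dab2* and *Sox17* were also highest in S04. *Foxa2* was highest in S05 and lowest in S04, and *Apob*, *Cubn* and *Amn* were highest in S06. The cardiac precursor marker *Gata4* was highest in S06 and lowest in S04. *Slc38a4*, *Plagl1* and *Gata6* were chosen with their values in view, and the relation between them and *Cdkn1c* was not tested.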
